A study of Mus musculus with 42 samples.

Results

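The comparison described here set 7 KO against 5 Control libraries of mouse thymic epithelial cells (TEC) sorted as Epcam+CD45-UEA-Ly51+, the surface phenotype used for cortical TEC. These 12 libraries, of 42 in the study, were taken by their sort gate and genotype labels, and 2 further libraries of the same gate, from Ski flox Control mice, were not used. KO stands for a deletion of SKI restricted to TEC, per the study's design text, and Control is labelled with no further allele. The labels and design text used here name no Cre driver, strain, age or number of mice. Each library was made from 200 sorted cells with a SMART-Seq v4 kit and a Nextera XT preparation, which keep neither strand nor molecular identifiers. The labels do not say which libraries came from the same mouse, and the p-values below measure the spread between libraries, which may be technical. The libraries were divided by number into an early set (4 KO, 3 Control) and a late set (3 KO, 2 Control), and the set entered the model as a term. No label says what the sets stand for.

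SKI is a transcriptional corepressor that binds SMAD proteins and recruits histone deacetylase complexes to the target genes of TGF-beta and BMP signalling. Its relative SnoN is encoded by Skil. Cortical TEC attract lymphoid progenitors, supply the NOTCH ligand Dll4 and present the peptides on which thymocytes are positively selected, using the thymoproteasome subunit Psmb11, the proteases Prss16 and Ctsl, and the uptake receptor Ly75.

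The 12 libraries held 3629200 to 7068077 counts. Cortical markers were highest in this sort: median Psmb11 over the 12 libraries was 515 CPM (the gene's count over its library's total, the total adjusted by TMM, edgeR's scaling between libraries), against 6.04 in 11 MHCII-low and 3.23 in 11 MHCII-high medullary TEC libraries. All 12 libraries nevertheless held leukocyte transcripts despite the CD45- gate. Ptprc, which encodes CD45, ranged from 155 to 963 CPM, and Coro1a, an actin-binding protein of leukocytes, from 512 to 1357 CPM. Genes of CCR7+ dendritic cells summed to 14549 to 29924 CPM in 10 libraries and to 928 and 2307 CPM in Control 1 and KO 1. Immunoglobulin and other plasma cell genes summed to 18821 CPM or more in Control 1, Control 4, KO 5 and KO 6, and to 1635 CPM or less in the other 8. The gate's own Enpep, which encodes Ly51, was at 0 in Control 5 and KO 6. The libraries are therefore called by their gate, Ly51+, and not by a cell type, and in such bulk samples fewer cells of a type and less RNA per cell cannot be told apart.

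**Figure D1:**
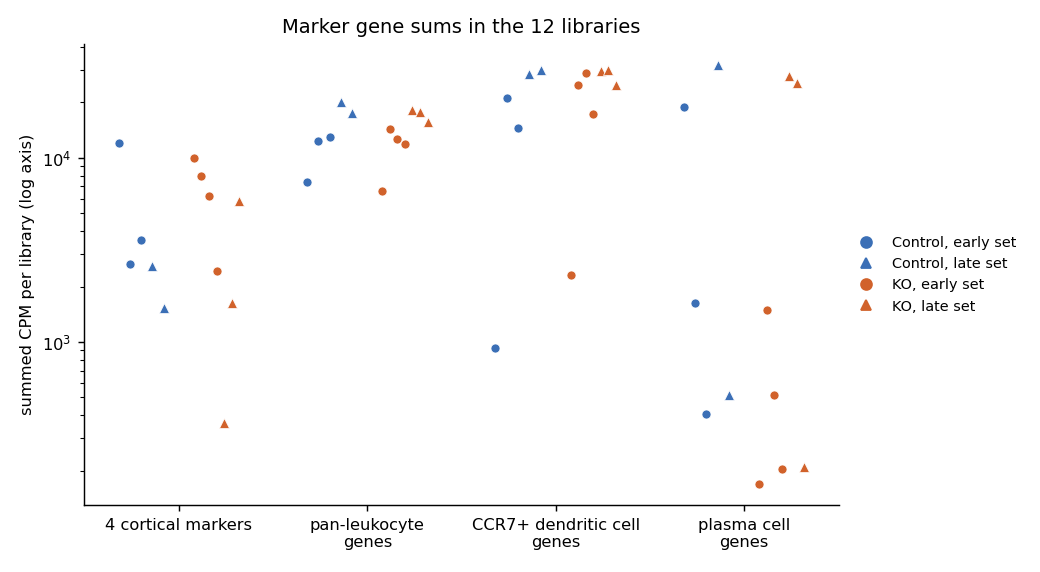
Summed CPM of marker genes in each Ly51+ library (log axis), with the 4 cortical markers, the pan-leukocyte genes, the CCR7+ dendritic cell genes and the plasma cell genes along the x axis. Blue is Control, orange is KO, circles are the early and triangles the late set; each marker sum overlaps between the genotypes, and KO 5 stands lowest for the cortical markers.

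Ski itself did not separate the genotypes. Its level was 19.2, 13.9, 27.9, 22.2 and 3.45 CPM in Control 1 to 5, and 0, 10.6 and 44.0 CPM as the lowest, median and highest of the KO libraries. KO 2 and KO 3 lay below every Control library, KO 1 and KO 4 lay above every one, and the other 3 lay within the Control range. The mean difference was -0.79 on the log2(CPM + 1) scale (two-sided exact permutation test, n = 7 and 5, p = 0.472), with -1.58 in the early set (exact p = 0.429) and 0.34 in the late set (exact p = 0.8). Gene-level counts over the whole transcript check a deletion only where the deleted part carries most of the counts, and the labels do not name the deleted exons. edgeR's log2 fold change of Ski was 0.01, so the mean of log values and the count model differed in sign. Directions below are therefore those of libraries labelled KO.

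KO libraries averaged fewer detected genes. Genes with at least 1 count numbered 17359, 14460, 14168, 16263 and 16281 in Control 1 to 5, and 11084, 13620 and 15625 as the lowest, median and highest of the KO libraries. The 4 early KO libraries lay below every Control library, and the 3 late ones lay below both late Control libraries. The mean was 2160 genes lower in KO by a two-sided exact permutation test (difference -2160, n = 7 and 5, exact p = 0.0467), and p was 0.0934 after Benjamini-Hochberg adjustment over the 2 single values tested, Ski and detected genes. With genotype permuted within each library set and the difference adjusted for the set, an alternative chosen after the values were seen, it was -2219.95 (exact p = 0.00571, adjusted p = 0.0114), and for Ski p was 0.471. Within sets the difference was -3020 in the early set (exact p = 0.0571, smallest possible 0.0286) and -1077 in the late set (exact p = 0.1, the smallest possible). After thinning each library to 3000000 counts it was -1912 (exact p = 0.0556).

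**Figure D2:**
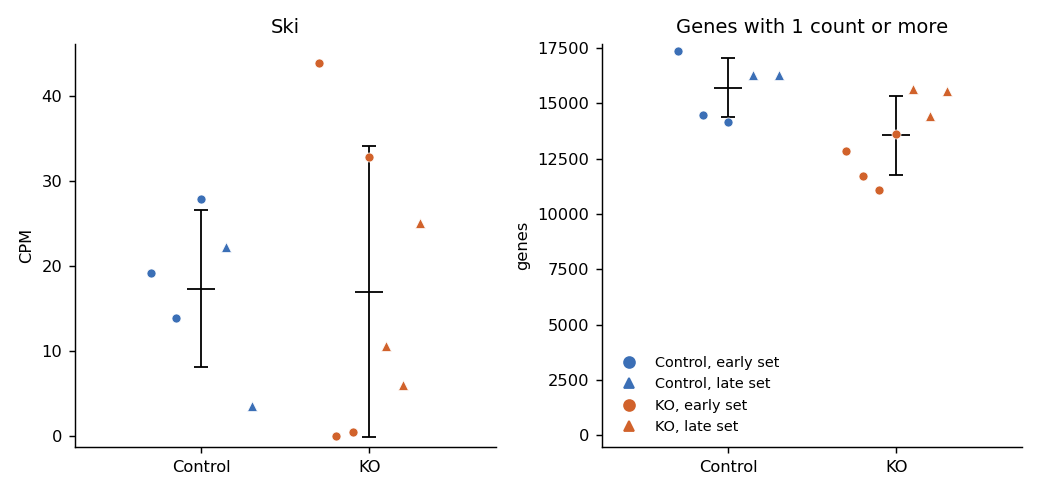
Ski level in CPM (left) and number of genes with at least 1 count (right) in each Ly51+ library, with group mean and SD as bars. KO libraries lie on both sides of Control for Ski, from 0 to 44.0 CPM, and at or below the middle of the Control range for detected genes.

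The design asks which genes depend on SKI in these cells. By edgeR's quasi-likelihood test with Benjamini-Hochberg adjustment at 0.05, 0 of 12244 genes were called (0.0%). At an unadjusted p under 0.05 there were 330 genes (2.7%), of which 258 were lower (2.11%) and 72 higher (0.588%) in KO. limma voom called 0 genes (0.0%), with 640 at an unadjusted p under 0.05 (5.23%). DESeq2 called 79 genes (0.645%), 75 of them lower in KO and 4 higher, with 655 at an unadjusted p under 0.05 (5.35%). The 4 higher were Atp5k, Atcay, Mrps5 and Gm1965, named after their values were seen. Of the 79, 48 were lower in KO in both library sets and 4 higher in both, against 38.3% and 16.9% of all genes tested. Higher or lower in both sets, here and below, refers to the mean log2(CPM + 1) within each set. The genotypes did not overlap in 6 of the 79, against 0.237% of all genes tested, and calls and overlap rest on the same values. Most of the lower calls were at 0 in 4 or more KO libraries. Mgl2 (mean 24.4 CPM in Control, 34.8 in KO) and Ms4a6d (16.5 and 21.7 CPM) were called lower despite a higher KO mean. The other lower calls had a lower mean in KO. The part of detected genes in these calls was not tested.

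**Figure D3:**
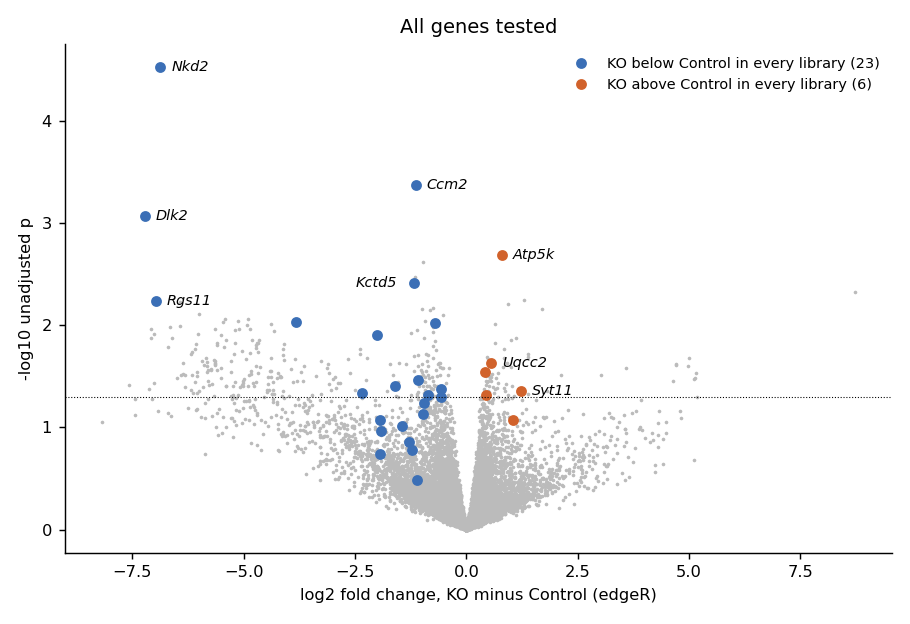
Log2 fold change, KO minus Control, against -log10 of the unadjusted p for the 12244 genes tested with edgeR. Coloured points are the 23 genes below and the 6 above Control in every KO library, and the dotted line marks the unadjusted threshold.

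Genes that parted the genotypes in every library were few. In 23 genes (0.188% of those tested) all 7 KO libraries lay below all 5 Control libraries, and in 6 genes (0.049%) all lay above, 29 in all (0.237%). Of these 29, the promoters of the 2 genes of smallest edgeR p in each direction are printed, a choice by p and not by the width of the gap, with matches to the SMAD motif CAGAC on either strand (GTCTG on the other) in capitals. Each is the RefSeq promoter sequence of build GRCm38.p6, 250 bases before to 50 after the start site, 5′ to 3′ on the gene's strand: Nkd2 at chr13:73847582-73847881 (minus), Ccm2 at chr11:6546637-6546936 (plus), Atp5k at chr5:108434350-108434649 (minus) and Uqcc2 at chr17:27133842-27134141 (minus).
Nkd2: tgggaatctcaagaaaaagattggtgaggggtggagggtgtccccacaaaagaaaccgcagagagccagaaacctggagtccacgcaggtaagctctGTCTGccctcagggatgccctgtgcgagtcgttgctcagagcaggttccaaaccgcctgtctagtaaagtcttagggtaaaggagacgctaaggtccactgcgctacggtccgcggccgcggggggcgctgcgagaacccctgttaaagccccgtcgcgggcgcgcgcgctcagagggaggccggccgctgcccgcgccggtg
Ccm2: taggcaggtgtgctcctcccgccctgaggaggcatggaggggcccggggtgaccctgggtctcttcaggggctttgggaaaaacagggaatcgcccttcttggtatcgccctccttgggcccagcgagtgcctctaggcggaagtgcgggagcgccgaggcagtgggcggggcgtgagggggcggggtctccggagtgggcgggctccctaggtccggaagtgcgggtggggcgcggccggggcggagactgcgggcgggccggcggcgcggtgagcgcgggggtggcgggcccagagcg
Atp5k: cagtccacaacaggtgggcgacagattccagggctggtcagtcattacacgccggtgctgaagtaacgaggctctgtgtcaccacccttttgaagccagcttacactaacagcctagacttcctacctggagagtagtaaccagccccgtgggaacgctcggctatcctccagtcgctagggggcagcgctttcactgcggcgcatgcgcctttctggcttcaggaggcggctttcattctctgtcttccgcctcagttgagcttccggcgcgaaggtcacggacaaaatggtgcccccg
Uqcc2: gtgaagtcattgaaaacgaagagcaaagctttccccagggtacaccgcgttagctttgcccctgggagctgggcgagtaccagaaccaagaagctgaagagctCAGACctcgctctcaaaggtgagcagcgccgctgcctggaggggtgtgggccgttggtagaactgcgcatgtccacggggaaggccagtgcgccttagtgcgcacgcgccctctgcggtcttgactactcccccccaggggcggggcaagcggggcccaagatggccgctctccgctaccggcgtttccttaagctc
Nkd2 and Uqcc2 each held 1 match, and Ccm2 and Atp5k held none. Of the promoters matched to genes tested, 47.1% of 9330 held CAGAC or GTCTG, against 4 of 17 for the genes lower in every KO library and 1 of 6 for those higher. The palindrome GTCTAGAC, which contains neither CAGAC nor GTCTG, was found in 0.214% of the 9330 and in 0 of the 17 and of the 6. A match describes letters in this window and not a bound site.

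Nkd2, which encodes an antagonist of WNT signalling that binds Dishevelled, had the smallest p of all genes (chromosome 13, 73818534 to 73847631, GRCm38, GENCODE M21). It stood at 12.2, 2.56, 4.82, 4.11 and 7.08 CPM in Control 1 to 5. In KO it was at 0 in 6 libraries and at 0.227 CPM, a single count, in KO 1. Summed over libraries that is 174 counts against 1, a level 202-fold higher in Control with an exact 95% interval of 35.8 to 8027 that covers counting error only. edgeR's adjusted p was 0.365 (log2 fold change -6.87 ± 1.07 SE) and DESeq2's was 0.00313. Nkd2 was the only member of the WNT list to part the genotypes, and all its Control values were low.

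Dlk2, a non-canonical NOTCH ligand, and Rgs11, a regulator of G protein signalling, were likewise almost absent from KO. Dlk2 stood at 39.2, 17.0, 4.96, 2.42 and 5.63 CPM in Control and at 0 in 6 KO libraries, with 3 counts (0.602 CPM) in KO 6. Rgs11 stood at 7.30, 10.4, 48.6, 8.46 and 18.3 CPM in Control and at 0 in 6 KO libraries, with 4.68 CPM in KO 7. Control was 156-fold (95% interval 53.1 to 762) and 25.3-fold (17.2 to 38.7) higher in summed counts, and the adjusted p was 1.0 for both by edgeR and 0.00199 and 0.0133 by DESeq2. Both genes were low-level and their Control values spread widely.

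Ccm2, the scaffold of the cerebral cavernous malformation complex, was the abundant gene with the smallest p. It was at 132, 148, 186, 130.1 and 187 CPM in Control and at 41.3, 72.2 and 114 CPM as the lowest, median and highest in KO. No KO library reached the lowest Control library. The log2 fold change was -1.14 ± 0.24 (SE; edgeR unadjusted p = 0.000427, adjusted p = 1.0, DESeq2 adjusted p = 0.00613), with differences of log2(CPM + 1) of -1.46 within early and -0.62 within late libraries. In the MHCII-low and MHCII-high medullary libraries the KO minus Control values of Ccm2 were 0.78 and 0.49, and the difference between Ly51+ and MHCII-low had an adjusted p of 0.499 by edgeR. Kctd5, an adaptor of cullin 3 ubiquitin ligases, was at 76.1, 56.2, 74.7, 86.1 and 61.8 CPM in Control and at 15.6, 33.6 and 55.6 CPM in KO, log2 fold change -1.19 ± 0.33 SE, with a DESeq2 adjusted p of 0.0439.

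The other genes below Control in every KO library included Nipbl, which loads cohesin onto DNA. It was at 149, 120.2, 130.1, 145 and 134 CPM in Control and at 42.6, 100.2 and 115 CPM in KO (log2 fold change -0.56 ± 0.25 SE). Mau2, its partner in the cohesin loader, had one of the smallest p-values among lower genes, although KO 5 and KO 7 overlapped Control: it was at 108, 62.1, 77.9, 145 and 96.1 CPM in Control and at 21.2, 40.0 and 104 CPM in KO (log2 fold change -1.20 ± 0.33 SE). The spliceosome helicase Aqr and the splicing factor Rbm10 were also below Control throughout. So were the IP3 receptor Itpr1, the mitochondrial glutamate carrier Slc25a22, the palmitoyltransferase Zdhhc7, the importin Ipo7, the flippase Atp11b, the lipase Ddhd2 and the sulfhydryl oxidase Qsox2. Cebpz, Anks3, Slc10a3, Cmip, Dcun1d3, Zfp398, Tagap1 and Fermt3 complete the 23.

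**Figure D4:**
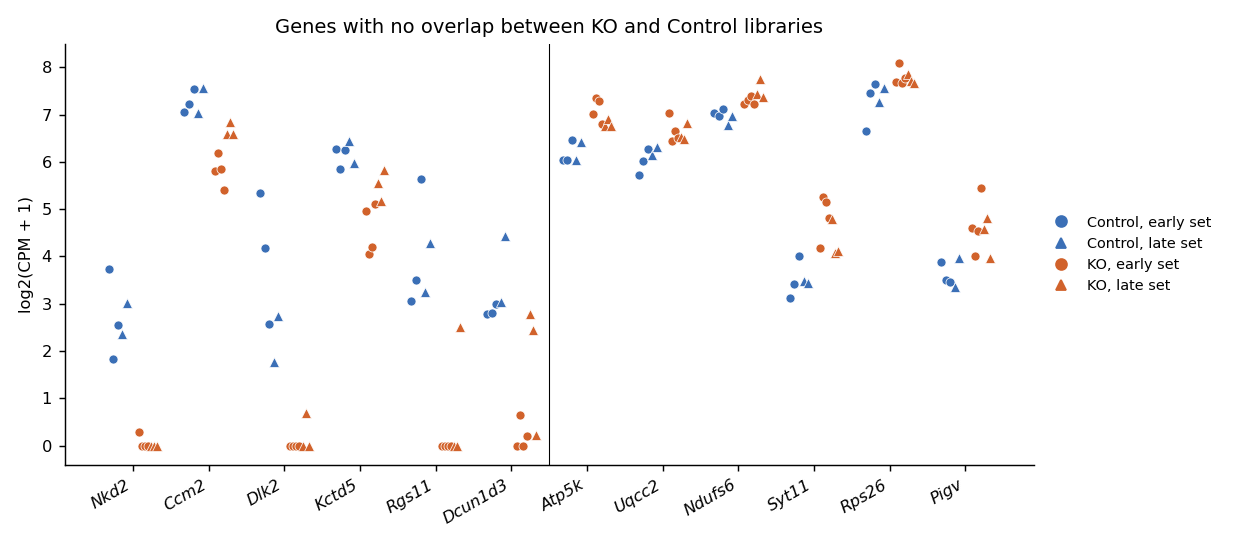
log2(CPM + 1) in each Ly51+ library for 12 genes with no overlap between genotypes: the 6 of smallest p below Control in KO (left of the line) and the 6 above it (right). Circles are the early and triangles the late set. Nkd2, Dlk2 and Rgs11 lie at 0 in 6 of 7 KO libraries. Among the 6 genes on the right, Rps26 and Pigv differ by a narrow margin, whereas Atp5k reaches 86.5 CPM in its highest Control and 107 CPM in its lowest KO library.

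The 6 genes above Control in every KO library were Atp5k, Uqcc2, Ndufs6, Rps26, Syt11 and Pigv, and none of them is on the lists of 42 respiratory chain or 32 ribosomal protein genes described below. Atp5k, a subunit of the mitochondrial ATP synthase, was at 64.6, 65.1, 86.5, 64.6 and 84.5 CPM in Control and at 107, 118 and 161 CPM as the lowest, median and highest in KO. Its log2 fold change was 0.79 ± 0.20 (SE), with differences of 0.94 within early and 0.58 within late libraries, an edgeR adjusted p of 1.0 and a DESeq2 adjusted p of 0.00787. Uqcc2, an assembly factor of respiratory complex III, had a log2 fold change of 0.55 ± 0.21 SE, and Ndufs6, a subunit of complex I, one of 0.42 ± 0.17 SE. Rps26 encodes a protein of the small ribosomal subunit and may share counts with its processed copies; its lowest KO library was at 202 and its highest Control library at 200.0 CPM. Syt11, a synaptotagmin of vesicle traffic, and Pigv, a mannosyltransferase of GPI anchor synthesis, had log2 fold changes of 1.23 ± 0.55 and 1.04 ± 0.55 SE. The margins of Rps26 and Pigv were narrow: Pigv reached 14.7 CPM in its highest Control and its lowest KO library.

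The 2 directions differed in a feature that the separation did not use, the length of the gene's merged exons in GENCODE M21. Its median was 1221 bases for the 6 higher and 5105 bases for the 23 lower genes, against 4293 bases for 12229 tested genes with a length. Over all tested genes, the 2064 higher in KO in both library sets had a median of 3233 and the 4689 lower in both one of 4679 bases. With the genes cut into 4 equal groups by length, the median log2 fold change was 0.04 in the shortest group and -0.13 in the longest. Expression level differed too, with a median of mean CPM of 95.5 for the 6 higher, 33.7 for the 23 lower and 32.0 for all tested genes. The median log2 fold change was -0.22 in the lowest and -0.0019 in the highest of 4 equal groups by mean CPM, a wider span than by length. Within the highest group by mean CPM, the median was 0.11 for the shortest and -0.045 for the longest genes. Number of detected genes moved with genotype as well, and the part of expression level or detected genes in this pattern was not tested.

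Among further genes with small p-values, 2 encode modulators of BMP and SMAD signalling. Twsg1, a secreted BMP-binding protein, was at 311, 141, 143, 63.6 and 64.7 CPM in Control and at 24.7, 74.6 and 119.8 CPM in KO. Within each library set every KO library lay below every Control library, and the log2 fold change was -0.98 ± 0.26 (SE; edgeR unadjusted p = 0.00242, adjusted p = 1.0). Wwp2, a NEDD4-family ubiquitin ligase, was at 137, 195, 210.2, 123 and 73.2 CPM in Control and at 32.2, 65.8 and 88.6 CPM in KO, log2 fold change -1.14 ± 0.32 SE. Only the lowest Control library overlapped KO for Wwp2.

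The other lower genes were Zscan21, a zinc finger protein, Entr1, of endosome traffic, Mia2, of cargo export from the endoplasmic reticulum, Ubox5, a ubiquitin ligase, Tmppe and the leukocyte gene Coro1a. Their unadjusted edgeR p-values ran from 0.00595 for Ubox5 to 0.0079 for Coro1a, and every edgeR adjusted p was 1.0. DESeq2 called 2 of them, Ubox5 (adjusted p = 0.000361) and Tmppe (adjusted p = 0.00737). Ubox5 was at 0 in all 4 early KO libraries and at 11.6 to 25.2 CPM in the late ones, against 15.5 to 47.6 CPM in Control.

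Among higher genes, Gtf2h1, a subunit of the transcription factor TFIIH, was at 50.9, 38.1, 10.9, 39.9 and 30.2 CPM in Control and at 39.7, 89.8 and 121 CPM in KO. In KO, 6 of 7 libraries lay above every Control library, and the log2 fold change was 1.30 ± 0.39 (SE; edgeR unadjusted p = 0.0056, adjusted p = 1.0). Cyp51, a sterol demethylase of cholesterol synthesis, was at 25, 44.3, 15.5, 37.2 and 39.8 CPM in Control and at 37.1, 68.9 and 279.9 CPM in KO, log2 fold change 1.70 ± 0.53 SE. Hmgcs1, the synthase that acts before HMG-CoA reductase, had a log2 fold change of 1.39 ± 0.52 SE, with KO 4 at 414 CPM. The 279.9 CPM of Cyp51 was also that of KO 4. Of 26 genes of cholesterol synthesis and uptake, 15 were positive and 11 negative (median 0.18), against 43.9% positive of all genes tested. They summed to 2436 CPM in KO 4, with a KO median of 1217 CPM, against 773 to 1620 CPM in Control. Far1 of ether lipid synthesis, Paics of purine synthesis, Hspe1 of the mitochondrial chaperonin, Ugp2 of UDP-glucose synthesis, the DNA repair genes Rbbp8 and Parp3, the zinc finger gene Gzf1 and the cyclophilin gene Ppig had log2 fold changes of 0.47 (Ppig) to 1.38 (Gzf1).

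The cortical programme varied more between libraries than between genotypes. Psmb11 stood at 2034, 365, 695, 191 and 229 CPM in Control and at 6.62, 626 and 1044 CPM as the lowest, median and highest in KO (log2 fold change -0.15 ± 0.67 SE, edgeR adjusted p = 1.0). Prss16 ran from 61.2 to 3203 CPM in Control and from 3.97 to 1953 CPM in KO. Ctsl ran from 992 to 6568 and from 92.2 to 6819.6 CPM, and Ly75 from 113 to 265 and from 99.9 to 349.9 CPM. The groups overlapped for all 4, and KO 5 was the lowest library for Psmb11, Prss16 and Ctsl.

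Of 11 genes of cortical antigen processing and identity, 7 had a positive and 4 a negative fold change, and none an unadjusted p under 0.05. Over all genes tested 43.9% were positive. Tbata and Ccl25, the thymus-attracting chemokine gene, had log2 fold changes of 0.13 ± 0.56 and 0.17 ± 0.75 SE. Foxn1, the master transcription factor of TEC, ran from 0 to 167 CPM in both genotypes. Dll4 was at 10.4, 13.1, 13.8, 16 and 20.7 CPM in Control and at 0.596, 39.6 and 118 CPM in KO. In KO, 5 libraries lay above and 2 below every Control library (log2 fold change 1.44 ± 0.93 SE, edgeR adjusted p = 1.0). Aire, a medullary regulator, was at 0 in Control 1, KO 1 and KO 2 and reached 122 CPM in KO 5.

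Genes of the SKI and SMAD pathway gave no call by edgeR, and Acvr2b gave one by DESeq2, which called 0.645% of all genes tested. Of 17 tested among SKI, SMADs and their receptors, 12 were negative and 5 positive, with a median log2 fold change of -0.29 against -0.08 for all genes tested. Smad2 and Smad4, the receptor-regulated and common mediators, had values of -0.21 ± 0.82 and -0.33 ± 0.49 SE. Skil was at 27.5, 149, 61.4, 132 and 135 CPM in Control and at 0.907, 76.7 and 159.5 CPM in KO. The inhibitory Smad7 was at 3.83 to 12 CPM in Control and at 0 to 11.9 CPM in KO. Both overlapped between genotypes.

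In that list 2 of 17 members had an unadjusted edgeR p under 0.05, against 2.7% of all genes tested: the type I receptor gene Acvr1 and the type II receptor gene Acvr2b, named after their values were seen. Acvr2b averaged 11 ± 6.43 CPM in Control and 5.72 ± 7.57 CPM in KO (SD), and Acvr1 3.18 ± 2.20 and 1.53 ± 2.15 CPM. DESeq2's adjusted p for Acvr2b was 0.00955, and the gene was at 0 in 4 KO libraries and in no Control library. Within late libraries alone the log2 fold changes turned sign, to 0.48 for Acvr2b and 0.27 for Acvr1. Of 10 TGF-beta and BMP ligands and inhibitors 7 were negative, and of 18 target genes 11 were negative. Among the targets the SMAD corepressor gene Tgif1 alone had an unadjusted p under 0.05 (127 ± 54.9 against 75.8 ± 33.3 CPM, SD), and among 20 SKI partners Tbl1x of the NCOR complex alone did (151 ± 55.5 against 85.0 ± 34.2 CPM, SD). In the WNT list 11 of 20 were positive, with Ctnnb1, which encodes beta-catenin, at 154 ± 81.9 CPM in Control and 209 ± 97.5 CPM in KO (SD), and in the NOTCH list Adam17, a sheddase gene, averaged 84.1 ± 37.1 against 36.3 ± 35.8 CPM (SD).

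Ribosomal protein genes lay together on the higher side without any passing. Of 32 members, 31 had a positive fold change and 30 were higher in KO in both library sets, against 16.9% of all genes tested, and the median log2 fold change was 0.22. Rplp0 averaged 842 ± 164 CPM in Control and 956 ± 130 CPM in KO, and Rpl11 137 ± 32.1 and 189 ± 30.9 CPM (SD). Of 42 nuclear genes of the respiratory chain, 31 were positive and 24 higher in both sets, with a median of 0.17. The 7 tested genes of the mitochondrial genome, whose share of RNA can follow cell quality, were all positive and higher in both sets (median 0.45). Their list summed to 6593 to 12250.3 CPM in Control and to 6339 to 13203 CPM in KO but for 26228 CPM in KO 2, without which the median was 0.14. Their part in the other lists was not tested. Cox6c, of cytochrome c oxidase, averaged 314 ± 66.7 CPM in Control and 429 ± 69.5 CPM in KO (SD). Under RLE size factors 32 of 32 ribosomal genes were positive. With the number of detected genes as a covariate 10 of 32 ribosomal, 29 of 42 respiratory and 0 of 7 mitochondrially encoded genes were positive, with medians of -0.061, 0.039 and -0.12.

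Leukocyte lists differed in direction, with pan-leukocyte genes mostly lower and CCR7+ dendritic cell genes mostly higher. Of 20 pan-leukocyte genes, a list drawn up after the values were seen, 17 had a negative fold change and 15 were lower in KO in both library sets, against 38.3% of all genes tested (median log2 fold change -0.37). Coro1a was at 997, 842, 849, 1357 and 1042 CPM in Control and at 512, 796 and 899 CPM in KO, and Fermt3, the integrin activator kindlin-3 of blood cells, at 247, 233, 274, 251 and 208 CPM and at 90.0, 161 and 207 CPM. KO lay below Control throughout for Fermt3 and in 6 of 7 libraries for Coro1a. Vav1 (203 ± 64.8 against 110 ± 54.6 CPM, SD) and Bin2 (168 ± 50.5 against 102 ± 33.7 CPM, SD) also had an unadjusted edgeR p under 0.05.

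Of 18 thymocyte markers 16 were negative, with a median of -0.64, and none of the 18 had an unadjusted p under 0.05. The median was -0.20 without Control 1. With detected genes as a covariate the direction turned, with 16 of 18 positive and a median of 0.64. With summed non-epithelial markers as a covariate 10 of 18 were positive. That covariate includes these 18 genes themselves, so it takes out part of their own difference and cannot decide their direction. The thymocyte markers summed to 2685 to 8003 CPM in Control and to 1103 to 5789 CPM in KO, and Lck averaged 794 ± 413 and 532 ± 391 CPM (SD). Of 14 myeloid and dendritic markers all 14 were negative under TMM scaling, with a median of -0.55, and 12 were negative under RLE size factors. Without Control 3, and with the ratio of Xist to Y-linked genes as a covariate, 7 of 14 were positive with a median of 0.03. With detected genes as a covariate 1 of 14 was positive (median -1.28). Without 1 library the myeloid median ran from -0.93 to 0.03. Of 15 genes of CCR7+ dendritic cells, another list drawn up after the values were seen, 13 were positive, 6 were higher and 0 lower in both sets, and the median was 0.28. Without Control 1, where their sum was lowest, 5 of 15 were positive (median -0.038), and with detected genes as a covariate 0 of 15 were (median -1.16). Itgax of dendritic cells had an unadjusted edgeR p under 0.05 and a DESeq2 adjusted p of 0.0133 (29.5 ± 38.2 against 18.9 ± 23.9 CPM, SD), and Laptm5 averaged 669 ± 238 and 504 ± 116 CPM (SD). In the late set alone 8 of 15 myeloid and 8 of 18 thymocyte markers were positive. The part of these cells in the other lower genes was not tested.

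**Figure D5:**
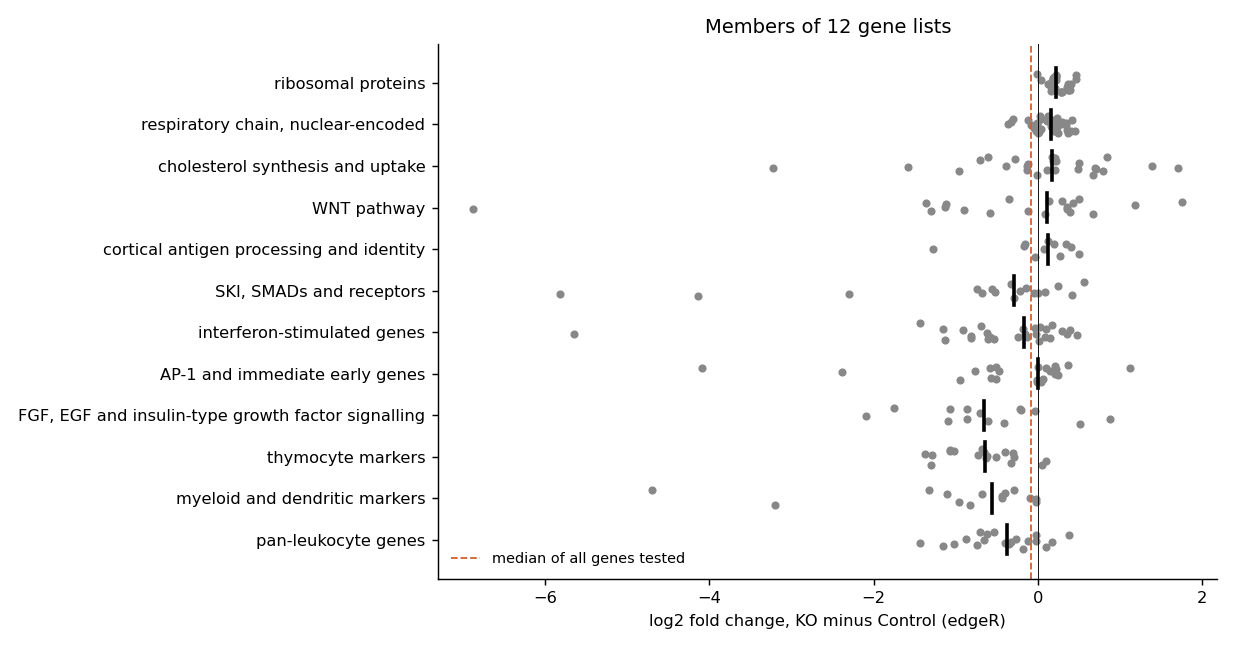
Log2 fold change, KO minus Control (edgeR), of the tested members of 12 gene lists; each dot is a gene, black bars are list medians and the dashed line is the median of all genes tested. Ribosomal protein genes cluster near 0.22, thymocyte markers have a median of -0.64, and Nkd2 is the isolated point of the WNT list.

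The medians of the interferon, AP-1 and growth factor lists moved with single libraries or settings. Of 28 interferon-stimulated genes 18 were negative (median -0.17) and 16 lower in both library sets, against 38.3% of all genes tested. The interferon regulator Irf7 was at 399 ± 218 CPM in Control and 230 ± 114 CPM in KO (SD). Oas2 was at 28.7 ± 30.3 and 11.2 ± 19.4 CPM (SD, DESeq2 adjusted p = 0.0185). Oas2 was at 0 in 4 KO libraries and in 1 Control library. Without KO 1 the interferon median was -0.55. Of 22 AP-1 and immediate early genes 17 were lower in both sets by mean log2(CPM + 1), against 38.3% of all genes tested. Their median log2 fold change by edgeR was 0.00. KO 1, whose AP-1 genes summed to 19176 CPM against 1521 to 7782 CPM in the other KO libraries, bore on that value. Without KO 1 the median was -1.45 and 1 of 22 was positive, and by limma voom with all libraries 3 of 22 were (median -0.88). With detected genes as a covariate 17 of 22 were positive (median 0.76). By edgeR 13 of 21 were positive within early libraries alone (median 0.36) and 2 of 23 within late ones (median -0.40). Fos averaged 1516 ± 620 CPM in Control and 1062 ± 1269 CPM in KO, and Fosl2, another FOS-family gene, 14.6 ± 10.8 and 1.40 ± 1.45 CPM (SD). In the MHC class II pathway 11 of 16 were negative, and Cd74 and H2-Ab1, its most abundant members, had log2 fold changes of -0.12 ± 0.25 and -0.32 ± 0.26 SE. B2m of MHC class I had one of 0.28 ± 0.25 SE. Of 14 growth factor signalling genes 12 were negative, with a median of -0.66, and none had an unadjusted p under 0.05. Over these 14, as far as each fit tested them, the median ran from -0.97 to -0.20 without 1 library. Within late libraries alone, where 16 list members were tested, 10 were positive (median 0.50). With detected genes as a covariate 10 of 14 were (median 0.27).

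The KO effect was then set against the other comparisons that the design allows. Between the late and the early set it differed for 0 of 12244 genes by edgeR's interaction test (0.0%), with 306 at an unadjusted p under 0.05 (2.5%), and DESeq2 called 69. Between Ly51+ and MHCII-low medullary libraries it differed for 0 of 18922 genes (0.0%; 1208 at an unadjusted p under 0.05, 6.38%; limma voom called 3: H2-Aa, Tas2r121 and A830019P07Rik). Between Ly51+ and MHCII-high libraries edgeR likewise called 0 (0.0%; 1154 at an unadjusted p under 0.05, 6.1%), and limma voom called 2, Actb and Crb1, all 5 named after their values were seen. The fit across sort gates took its 34 libraries as independent, so any pairing of gates within a mouse was not used. The biological coefficient of variation between the 12 Ly51+ libraries was 1.05 by edgeR.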

How the data were processed

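RNA from 200 sorted cells per library was amplified and sequenced. The authors deposited one table of raw read counts per gene for 42 libraries and 53465 Ensembl genes; no count was normalised. Per the submitters' processing notes the tools named are HTSeq 0.4.1, Picard 1.134, FastQC 0.11.3 and SAMtools 1.2, with build GRCm38; the aligner, annotation and strand setting are not among them. Amplification without molecular identifiers means that counts are not independent molecules, and intervals cover counting error only. Gene identifiers were matched to GENCODE M21 (53274 matched, 191 did not).

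For the 12 Ly51+ libraries, genes were kept by filterByExpr (minimum count 10, total 15), scaled by TMM, and tested with edgeR 4.0.16 (R 4.3.3) by its quasi-likelihood test with genotype and library set (library number up to 78047, or from 78048) as terms, and Benjamini-Hochberg adjustment over 12244 genes at 0.05. The comparison with medullary libraries used 34 libraries of at least 100000 counts. Fitted log2 fold changes of genes near 0 depend on the prior count. Ski and the number of detected genes were tested by exact permutation over libraries, with 1 added to CPM before log2. Intervals of count ratios came from SciPy 1.17.1. Scripts were tested on simulated data. Alternatives used DESeq2 1.42.0, limma 3.58.1, other scalings and filters, covariates and left-out libraries.

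Named genes were Ski, the 12 of smallest p in each direction that moved one way in both sets, where the higher genotype had a median CPM of 10 or more, up to 10 more per direction among genes whose groups do not overlap, members of each list (those past the threshold or not overlapping, then the 2 most abundant), and 9 fixed genes; others are given as chosen after their values were seen, as are all 29 non-overlapping genes and the list members with an unadjusted p under 0.05. The 42 gene lists and the named members were chosen with earlier results of these data known, and 3 further lists after the values were seen.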

Additional observations from a re-analysis of the deposited data

Results flagged for a closer look

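Of 180 sets of values, each the log2(CPM + 1) level of a named gene or a library measure in 1 genotype, 28 held a library set apart from the others, its gap to the nearest library being a large share of the group's whole range. Chance sets apart about 1 in 20 such groups. In Control, library 1 was lowest for Ccl22 (share 0.92) and Ccr7 (0.727) and highest for Ctsl (0.711), and library 5 was highest for Dcun1d3 (0.836). In KO, library 5 was lowest for Psmb11 (0.709), Ccl25 (0.692), Tbata (0.649) and Prss16 (0.638). KO 1 was lowest for Smad2 (0.912), Rbm10 (0.837), Ccl22 (0.816), Skil (0.728), Smad4 (0.645) and Ccr7 (0.634). KO 3 was lowest for Slc25a22 (0.824), Zdhhc7 (0.741), Anks3 (0.719) and Cmip (0.689), and highest for Tnnt2 (0.629), at 11.05 on the log2(CPM + 1) scale.

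KO 2 was lowest for Atp11b (0.727) and Aqr (0.68), KO 4 lowest for Zfp398 (0.603) and KO 7 lowest for Gtf2h1 (0.608). KO 6 was highest for Ndufs6 (0.59). A share of 1.0 came from genes at 0 in all but 1 KO library: Nkd2 (KO 1), Dlk2 (KO 6), Rgs11 (KO 7) and Grhl1 (KO 7).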

How the results depend on the processing

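No paired analysis was possible because the labels give no replicate numbers shared between the genotypes. The count of genes past the adjusted threshold was 0 in every edgeR and limma setting run, including each left-out library, and 79 by DESeq2, against 655 at an unadjusted p under 0.05. The late-against-early difference gave 69 calls by DESeq2, and the differences from MHCII-low and MHCII-high libraries 3 and 2 calls by limma voom. Genes without overlap numbered 561 within early and 2661 within late libraries, 90 without KO 5 and Control 5 (chosen after seeing the data), and 44 to 74 without 1 library, counts that rise with fewer samples by construction. Detected genes differed by -1912 after thinning, -3020 in the early set, -1077 in the late set and -2545 to -1747 without 1 library, of which 8 of 12 settings, without Control 1, 4 or 5 or KO 1, 2, 3, 4 or 6, gave an exact p above 0.05. The Ski difference was 0.34 in the late set. Log2 fold changes of genes that did not pass turned sign as follows; the cause was not tested. Without the set term Ski was -0.027, Prss16 -0.055 and Ccl25 -0.11. By limma voom Ski was -1.03, Prss16 -0.039, Dll4 -0.075 and Ccl25 -0.081. In the early set Ski was -0.094, Prss16 -0.10 and Ccl25 -0.33. In the late set Psmb11 was 0.19, Aire 0.096, Smad4 0.0525, Smad2 0.26, Acvr2b 0.48, Acvr1 0.27 and Ccr7 -0.10. Without 1 library Ski ran from -0.44 to 0.42, Psmb11 from -0.48 to 0.38, Prss16 from -0.53 to 0.71, Ctsl from -0.28 to 0.87, Aire from -2.60 to 0.41, Tbata from -0.16 to 0.52, Ccl25 from -0.38 to 0.77, Smad2 from -0.34 to 0.050, Ccr7 from -0.11 to 0.63 and Ccl22 from -0.031 to 0.55. The median of all genes lay between -0.23 (limma voom) and 0.00. Depth of 3629200 counts or more limits low genes such as Nkd2.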

Other observations

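Transcripts of other tissues, of a kind that medullary TEC are known to display, stood out in single Ly51+ libraries. Their source was not tested. Control 3 held Chga, a neuroendocrine granule protein, at 11168 CPM and Pth, parathyroid hormone, at 6183 CPM. Pth was at 0 in the other 11 libraries and Chga at 4.02 CPM or less. Both are on the list of parathyroid and thyroid genes, which summed to 18011 CPM in Control 3 and to 23.2 CPM or less in the other 11. KO 3 held muscle-like genes at a sum of 3839.6 CPM, against 13.5 to 232 CPM in the other 11. KO 2 held enterocyte and hepatocyte-like genes at 1759.9 CPM. The medullary chemokine gene Ccl21a was at 0 in 11 of 12 libraries, but the other medullary markers examined were found in most. Krt5 ran from 3.01 to 168 CPM and Tnfrsf11a from 2.92 to 177 CPM over the 12. Aire and Cldn4 were at 0 in 3 libraries each and Fezf2 in 4.

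Y-linked genes summed to 33.3 CPM in Control 2 and 26.4 CPM in Control 3 and to 0 in the other 10 libraries, while Xist ran from 1.18 CPM in KO 3 to 148 CPM in KO 5. The late libraries resembled one another more than the early ones did, or early with late ones. Median Pearson r of log2(CPM + 1) over genes was 0.847 within late (10 pairs), 0.646 within early (21 pairs) and 0.664 between early and late (35 pairs). Genes are not independent replicates. An earlier reading of these data had found that libraries correlate by number, and the set term was chosen with that known.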
